A study of Homo sapiens with 6 samples.

Results

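The genes described here are those of the YAP and TAZ branch of the Hippo pathway: the coactivators YAP1 and WWTR1 (the gene of the TAZ protein), the kinases LATS1 and LATS2 that restrain them, the DNA-binding partners TEAD1 and TEAD4, and the target genes CYR61 (now CCN1), CTGF (now CCN2), ANKRD1 and AMOTL2. These 10 genes were taken by symbol from the 24294 loci of the deposited expression table, and each matched 1 locus that carries no other symbol. RNA was sequenced from MCF12A cells, a human mammary epithelial line that is known as immortalized and not tumour-forming, although its labels call it a breast cancer line. The 3 samples of the empty vector (EV) group carried the vector alone and the 3 samples of the miR-424 group stably over-expressed the microRNA miR-424, all grown for 48 hours. The construct's promoter and the number of clones are not stated in the labels.

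In the Hippo pathway, MST kinases activate LATS kinases, and LATS kinases phosphorylate YAP and TAZ, which are then held in the cytoplasm or degraded. Unphosphorylated YAP and TAZ enter the nucleus, bind TEAD factors and switch on genes such as CYR61, CTGF and ANKRD1. Some of these targets, LATS2 and AMOTL2 among them, encode inhibitors of YAP and TAZ and so form a negative feedback. In mammary epithelial cells the pathway responds to cell density, shape and the stiffness of the matrix. Levels of messenger RNA do not measure the phosphorylation or the location of YAP and TAZ.

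The locus that holds the microRNA (MGC16121/MIR424) was at 0.989, 1.27 and 1.23 FPKM in EV replicates 1 to 3. It was at 107, 106 and 224 FPKM in miR-424 replicates 1 to 3. FPKM are fragments per kilobase of transcript, scaled to the mapped fragments of the library. Fragments of the construct and of the cells' own transcript were not told apart. The cytokeratins KRT8 (150 to 176 FPKM) and KRT18 (82.1 to 91.4 FPKM) were high in the 6 libraries, whereas the epithelial markers E-cadherin (CDH1, 0.0113 to 0.0387 FPKM) and KRT19 (0.0421 to 0.163 FPKM) were near 0. The epithelial marker EPCAM lay between these, at 2.54 to 3.23 FPKM. The summed level of 5 basal mammary markers was 84.5 to 90.1 FPKM in EV and 58.2 to 69.5 FPKM in miR-424 libraries. Of these KRT5 and ITGB4 fell (log2 changes of -0.63 and -0.48), KRT14 rose (0.71), KRT17 did not pass (0.12) and TP63 was too low to test. Their adjusted p by limma (Benjamini-Hochberg) were 0.00415, 0.00655, 0.0165 and 0.504 in that order. The summed level of 7 fibroblast markers, of which COL1A1 and DCN reached 1 FPKM, was 156 to 166 and 164 to 185 FPKM. COL1A1 rose (log2 change 0.21; Benjamini-Hochberg adjusted p = 0.0456, limma) and DCN did not pass (0.11; adjusted p = 0.347). Of 5 leukocyte markers 1 reached 1 FPKM (CD68), and of 5 endothelial markers 0 did. The part of these cell type markers in the results was not tested. Read numbers are not stated in the labels, and whole-fragment steps in the low values gave only approximate depths, from 0.768 to 1.22 of EV replicate 1. The library miR-424 replicate 3 stood apart from the others: its median absolute log2 difference from miR-424 replicates 1 and 2 over 11574 loci was 0.142 and 0.152, against 0.0408 between those 2 and 0.0357 to 0.0417 among the EV libraries. Nothing in the labels says that the samples of a group came from separate cultures, so the p-values speak only of the spread among these libraries, and that spread may be technical.

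CYR61 rose in miR-424 cells, and it was the 1 gene of the 10 that passed the test over all loci. The other 9 did not pass, among them LATS2, which was lower in every miR-424 library. The test was limma on log2(FPKM + 1), with Benjamini-Hochberg adjustment over the 11574 loci whose mean reached 1 FPKM and a threshold of 0.05. All 10 genes met this minimum. Of all tested loci 1.24% were called higher and 6.32% lower, 7.56% in either direction. The 1 rise and 0 falls among 10 genes are read against these shares and are no result about the 10 as a set. Rises made up 16.5% of all calls, and 38.4% with median-of-ratios scaling or 41.6% with quantile normalization, under which CYR61 rose and LATS2 fell. The median log2 change of the 10 genes was 0.01, against -0.05 over all tested loci. An unadjusted p under 0.05 was reached by 3 of the 10, CYR61, LATS2 and ANKRD1, and by 2732 of all 11574 loci. With miR-424 replicate 3 left out, 6 of the 10 were called higher and 1 lower, in a fit that called 14.9% of all loci higher and 22.2% lower.

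**Figure D1:**
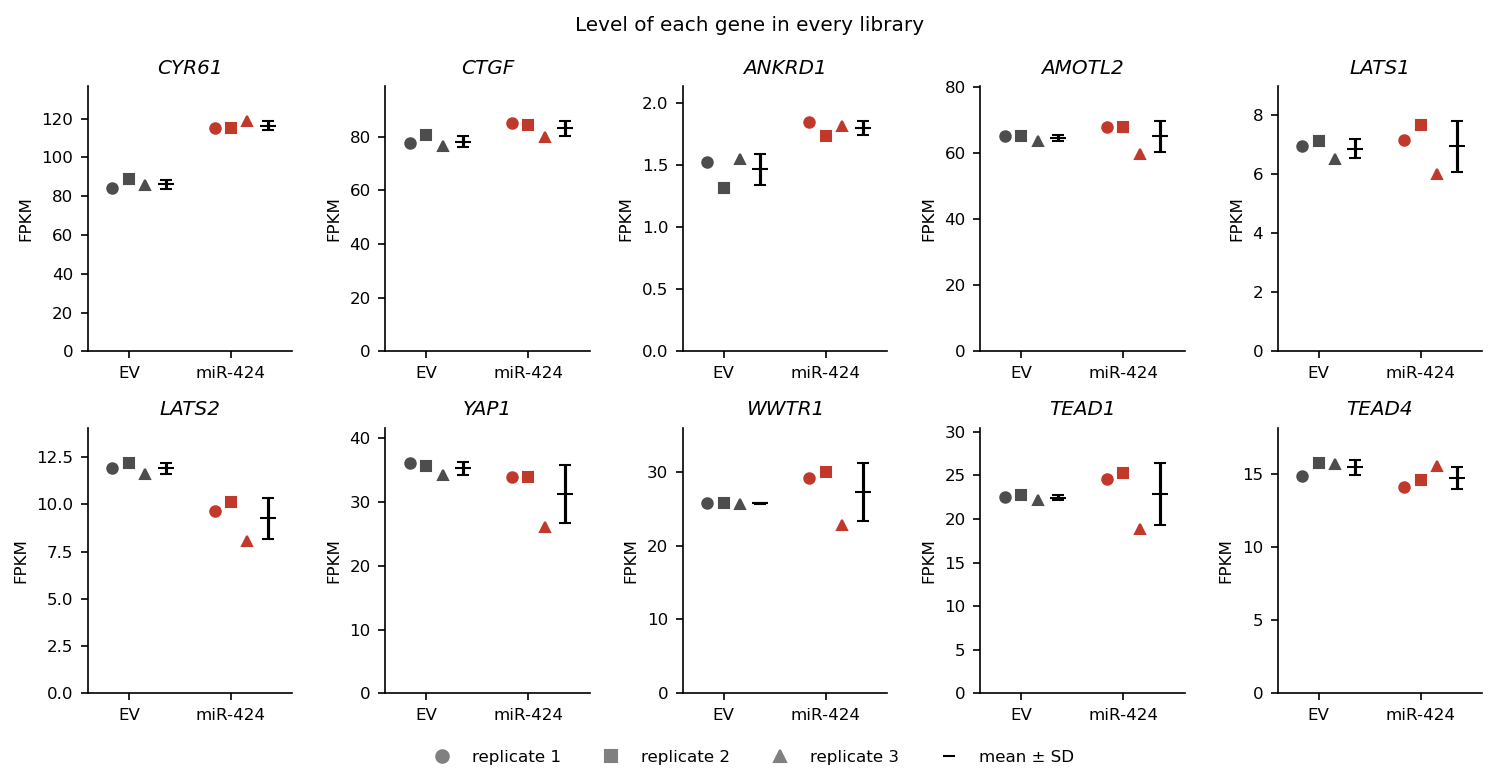
FPKM (vertical axes, from 0, each gene on its own scale) of the 10 genes in the 3 EV and 3 miR-424 libraries; symbols mark the replicate and the bar is the mean ± SD of 3. CYR61 lies at 115 to 119 FPKM in miR-424 libraries, all above the EV libraries, and for LATS1, LATS2, YAP1, WWTR1, TEAD1 and AMOTL2 the triangle of miR-424 replicate 3 is the lowest of the 6.

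Among the target genes, CYR61 and CTGF had the highest levels of the 10. CYR61, a secreted matrix-associated protein of the CCN family that signals through integrins, lay on chromosome 1 from 86046443 to 86049648 (hg19, as in the deposited table). It was at 84.3, 88.7 and 85.6 FPKM in EV replicates 1 to 3 and at 115, 115 and 119 FPKM in miR-424 replicates 1 to 3. The 3 miR-424 libraries lay together and well above the EV libraries. The mean went from 86.2 ± 2.27 to 116 ± 2.40 FPKM (SD, n = 3), a ratio of 1.35, and the log2 change was 0.43 ± 0.04 (SE; Benjamini-Hochberg adjusted p = 0.00275, limma). In bulk RNA a change in the cells present and a change in RNA per cell cannot be told apart. CYR61 passed in 19 of 19 alternative fits, with log2 changes of 0.41 to 0.49 and adjusted p of 8.3e-05 to 0.0353 (limma).

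CTGF, another secreted CCN protein and a common readout of YAP activity, lay on chromosome 6 from 132269316 to 132272518. Its level was 77.5, 80.4 and 76.3 FPKM in EV replicates 1 to 3 and 85.0, 84.4 and 79.8 FPKM in miR-424 replicates 1 to 3. The groups overlapped, because miR-424 replicate 3 lay below EV replicate 2. The log2 change of CTGF was 0.09 ± 0.04 (SE, 95% interval -0.01 to 0.19; Benjamini-Hochberg adjusted p = 0.266, limma), so that a rise as large as that of CYR61 lay outside its interval. CTGF was called higher, with a log2 change of 0.12, without miR-424 replicate 3 (adjusted p = 0.0124 by limma) and by 0.14 with the trend on transcript GC content removed (adjusted p = 0.0344). Its adjusted p ran from 0.00473 to 0.591 over 19 alternatives.

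ANKRD1, a nuclear ankyrin repeat protein, was the lowest of the 10 genes and lay on chromosome 10 from 92671856 to 92681032. It was at 1.53, 1.32 and 1.55 FPKM in EV replicates 1 to 3 and at 1.85, 1.74 and 1.82 FPKM in miR-424 replicates 1 to 3. All 3 miR-424 libraries were above all EV libraries. The log2 change was 0.19 ± 0.05 (SE; Benjamini-Hochberg adjusted p = 0.0890, limma), on a scale that understates low genes; the ratio of mean FPKM was 1.23. ANKRD1 was called higher in 1 of 18 alternatives, the one without miR-424 replicate 3 (adjusted p = 0.0464 by limma, in a range of 0.0464 to 0.292).

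AMOTL2, an angiomotin-family scaffold at cell junctions that binds and restrains YAP, lay on chromosome 3 from 134074189 to 134093406. Its EV libraries read 65.3, 65.2 and 63.7 FPKM and its miR-424 libraries 67.8, 68.0 and 59.8 FPKM. Replicates 1 and 2 of miR-424 were above all EV libraries and replicate 3 was below them. The log2 change was 0.01 ± 0.06 (SE, 95% interval -0.13 to 0.14; Benjamini-Hochberg adjusted p = 0.961, limma). Without miR-424 replicate 3 it was 0.07 and passed (adjusted p = 0.0354 by limma; 0.00267 to 0.988 across its 19 alternatives).

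TEAD factors recognise the letters GGAATG, and the starts of CTGF and ANKRD1 are shown here because both are standard TEAD target genes whose levels are given above. In RefSeq windows from 250 bases before to 50 bases after a gene's start (GRCh38.p14), GGAATG or its reverse complement CATTCC was found in 14% of 35116 windows, at least 2 copies in 1.37% and at least 3 in 0.128%. Of the 10 genes 7 matched a window (10 windows, since some genes have several starts), and 5 of the 7 held the motif at least once: CTGF, ANKRD1, AMOTL2, YAP1 and LATS2. Counted by window, as the 14% is, the motif was in 5 of the 10. CYR61, TEAD1 and TEAD4 had no match in the table. The CTGF window held 3 copies and the ANKRD1 window 2, printed 5′ to 3′ on the gene's strand, the minus strand for both, with the motif in capitals.
CTGF at chr6:131951524-131951553: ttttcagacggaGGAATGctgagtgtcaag
CTGF at chr6:131951459-131951488: ggaaggtggggaGGAATGcgaGGAATGtcc
ANKRD1 at chr10:90921290-90921319: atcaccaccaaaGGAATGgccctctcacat
ANKRD1 at chr10:90921198-90921227: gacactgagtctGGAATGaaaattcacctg
In the second CTGF stretch 2 copies stand 3 bases apart. A match of these letters is a description of the window, not a measured binding site.

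Both LATS kinases phosphorylate YAP and TAZ, and LATS2 is in addition a YAP and TAZ target. LATS2 lay on chromosome 13 from 21547175 to 21635722 and was at 11.9, 12.2 and 11.6 FPKM in EV replicates 1 to 3 and at 9.64, 10.1 and 8.05 FPKM in miR-424 replicates 1 to 3. Every miR-424 library was below every EV library. The mean went from 11.9 ± 0.301 to 9.26 ± 1.07 FPKM (SD, n = 3), a ratio of 0.780, and the log2 change was -0.33 ± 0.08 (SE; 95% interval -0.52 to -0.15; Benjamini-Hochberg adjusted p = 0.0534, limma), just short of the threshold. LATS2 passed in 8 of 19 alternatives, with negative changes in all 19 (-0.39 to -0.21, adjusted p 0.00209 to 0.204, limma). It passed without miR-424 replicate 3 (-0.25, adjusted p = 0.00209), with median-of-ratios scaling (-0.28, adjusted p = 0.0347), with quantile normalization (-0.28, adjusted p = 0.0317) and with the GC trend removed (-0.28, adjusted p = 0.0356).

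LATS1, on chromosome 6 from 149979288 to 150039392, was at 6.96, 7.11 and 6.49 FPKM in EV replicates 1 to 3 and at 7.16, 7.67 and 5.99 FPKM in miR-424 replicates 1 to 3. Replicates 1 and 2 of miR-424 were above all EV libraries and replicate 3 below them. The log2 change was 0.01 ± 0.08 (SE; Benjamini-Hochberg adjusted p = 0.963, limma), and LATS1 passed in 0 of 19 alternatives.

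Of the coactivators, YAP1, on chromosome 11 from 101981191 to 102104154, was at 36.2, 35.6 and 34.2 FPKM in EV replicates 1 to 3 and at 33.9, 33.9 and 26.1 FPKM in miR-424 replicates 1 to 3. All 3 miR-424 libraries were below all EV libraries, replicates 1 and 2 by little and replicate 3 by much more. The log2 change was -0.18 ± 0.10 (SE, 95% interval -0.42 to 0.06; Benjamini-Hochberg adjusted p = 0.345, limma), and it was -0.06 without miR-424 replicate 3. YAP1 passed in 0 of 19 alternatives.

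WWTR1, on chromosome 3 from 149235021 to 149421060, encodes TAZ, the paralog of YAP. It was at 25.8, 25.7 and 25.6 FPKM in EV replicates 1 to 3 and at 29.1, 30 and 22.8 FPKM in miR-424 replicates 1 to 3. The EV libraries were almost equal, and the miR-424 libraries lay on both sides of them. Over the 6 libraries the log2 change was 0.08 ± 0.10 (SE; Benjamini-Hochberg adjusted p = 0.715, limma). Without miR-424 replicate 3 it was 0.19 and passed (adjusted p = 0.00128 by limma; 0.000548 to 0.983 across its 19 alternatives), and the change in that library alone was -0.16 against the EV mean.

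TEAD1, on chromosome 11 from 12695968 to 12966284, encodes the TEAD factor with the higher level of the pair. It was at 22.5, 22.7 and 22.2 FPKM in EV replicates 1 to 3 and at 24.6, 25.3 and 18.8 FPKM in miR-424 replicates 1 to 3. Replicates 1 and 2 of miR-424 were above all EV libraries and replicate 3 below them. The log2 change was 0.02 ± 0.11 (SE; Benjamini-Hochberg adjusted p = 0.953, limma). Without miR-424 replicate 3 it was 0.15 and passed (adjusted p = 0.00427 by limma; 0.00367 to 0.984 across its 19 alternatives).

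TEAD4, on chromosome 12 from 3068477 to 3149842, was at 14.9, 15.8 and 15.7 FPKM in EV replicates 1 to 3 and at 14.1, 14.6 and 15.6 FPKM in miR-424 replicates 1 to 3. Here miR-424 replicate 3 was the highest of its group, and the groups overlapped. The log2 change was -0.06 ± 0.05 (SE; Benjamini-Hochberg adjusted p = 0.507, limma) and became 0.02 with the GC trend removed. TEAD4 passed in 0 of 19 alternatives.

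**Figure D2:**
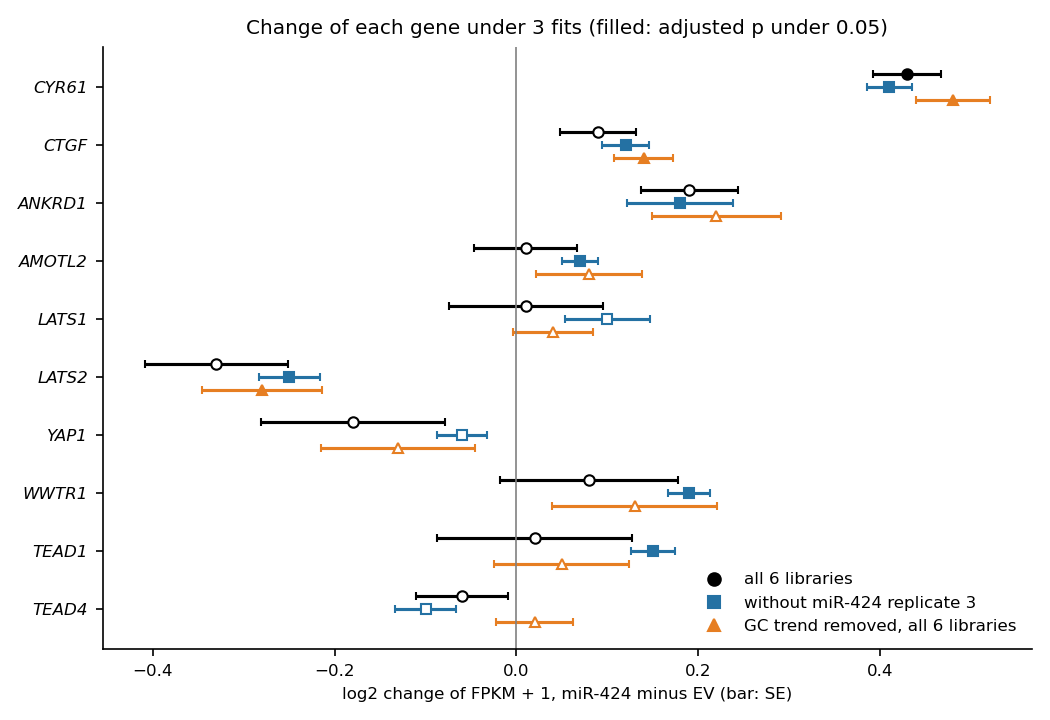
Log2 change of FPKM + 1 (horizontal axis, miR-424 minus EV, bar: SE) of the 10 genes in the fit of all 6 libraries, in the fit without miR-424 replicate 3 and in the fit with the GC trend removed; filled symbols passed an adjusted p of 0.05. CYR61 is filled in all 3 fits, at 0.41 to 0.48, LATS2 in the 2 alternatives only, and WWTR1, TEAD1, AMOTL2 and ANKRD1 only without that library.

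Since FPKM is scaled to transcript length, levels can be set side by side between genes, but only roughly. The values of these libraries also moved with GC content and length, as given below. In EV cells the order was CYR61 (86.2 FPKM), CTGF (78.1), AMOTL2 (64.7), YAP1 (35.3), WWTR1 (25.7), TEAD1 (22.5), TEAD4 (15.5), LATS2 (11.9), LATS1 (6.86) and ANKRD1 (1.47), and the libraries of all 9 neighbouring pairs were apart. The order of means was the same in miR-424 cells, where 7 of 9 neighbouring pairs were apart. The pairs that overlapped were YAP1 with WWTR1 (31.3 ± 4.51 and 27.3 ± 3.90 FPKM) and WWTR1 with TEAD1 (22.9 ± 3.60 FPKM; SD, n = 3). Among the 10 genes, the groups did not overlap for 2 that were higher in every miR-424 library (CYR61 and ANKRD1) and for 2 that were lower in every one (LATS2 and YAP1). Of all tested loci 6.59% were higher and 26.9% lower in this sense.

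The ratio of related genes within a library does not depend on the scaling of that library, but it keeps any trend with GC content or length. GC content was 51.8% and 42.3% for LATS2 and LATS1 and 46.3% and 60.1% for TEAD1 and TEAD4. Transcripts of YAP1 and WWTR1 had mean lengths of 2727 and 1327 bases. In 2 of the 4 ratios computed, miR-424 replicate 3 did not stand apart. YAP1 over WWTR1 was 1.4, 1.39 and 1.34 in EV replicates 1 to 3 and 1.17, 1.13 and 1.14 in miR-424 replicates 1 to 3. YAP1 was thus the more abundant coactivator transcript in each library, by a smaller margin in every miR-424 library. LATS2 over LATS1 was 1.70, 1.71 and 1.78 in EV replicates 1 to 3 and 1.35, 1.32 and 1.34 in miR-424 replicates 1 to 3. CYR61 over CTGF was 1.09, 1.10 and 1.12 in EV libraries and 1.35, 1.36 and 1.49 in miR-424 libraries. In these 3 ratios the groups were apart, with log2 differences of -0.26, -0.38 and 0.34 (exact permutation test, two-sided, p = 0.1 each, the smallest that 3 against 3 can give; 0.133 adjusted over 4 ratios). The share of all gene pairs with groups apart was not computed, so 3 of 4 is no result about these pairs. TEAD1 over TEAD4 was 1.5, 1.44 and 1.42 in EV libraries and 1.75, 1.73 and 1.21 in miR-424 libraries, which overlapped (exact permutation p = 0.8). A ratio shows that the FPKM of the 2 genes of a pair changed unequally, not which of them changed or why.

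**Figure D3:**
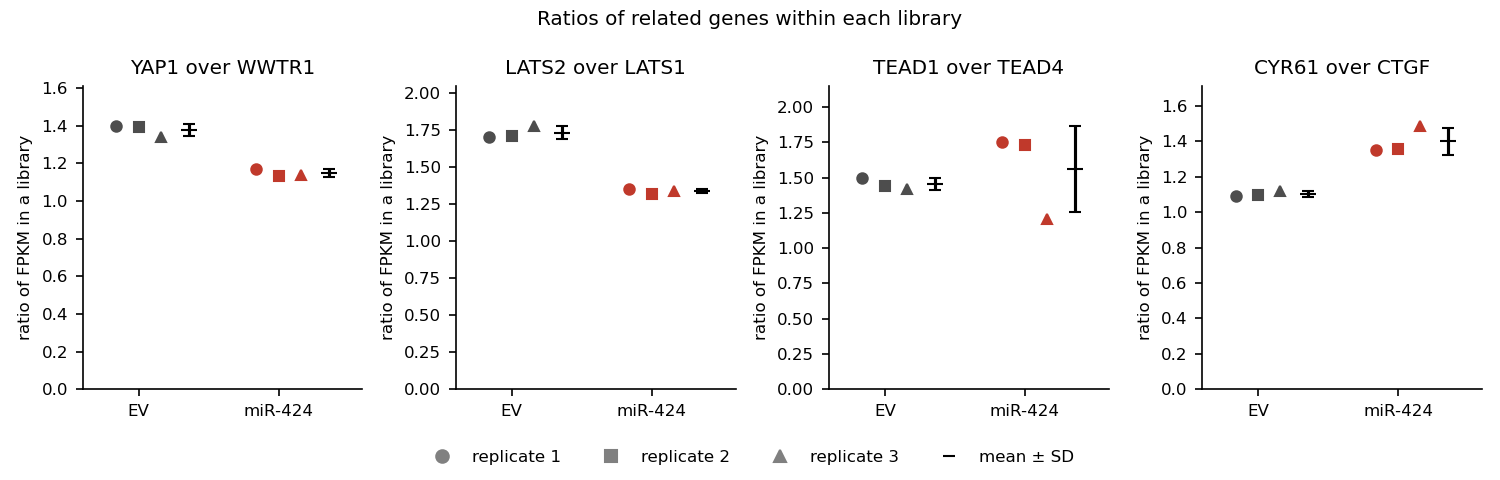
Ratio of the FPKM of 2 related genes within each library (vertical axes, from 0), with symbols for replicates and the mean ± SD of 3. YAP1 over WWTR1 and LATS2 over LATS1 are lower in all 3 miR-424 libraries and CYR61 over CTGF is higher; TEAD1 over TEAD4 overlaps, with miR-424 replicate 3 at 1.21.

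Base composition moved with the split between the miR-424 libraries. Over all tested loci, miR-424 replicate 3 lay below the mean of replicates 1 and 2 by a median log2 difference of -0.30 where transcripts had under 40% GC, and above it by 0.06 at 60% GC or more. By transcript length the difference went from 0.01 under 1500 bases to -0.16 at 5000 bases or more. Replicates 1 and 2 also differed from EV by GC content, with a median of 0.08 under 40% GC and -0.10 at 60% or more. The medians of replicate 3 against EV were -0.22 and -0.05 in these bins. The fit without replicate 3 thus keeps a GC trend of its own. TEAD1 (46.3% GC), YAP1 (50.6%) and WWTR1 (53.7%) were lower in replicate 3 than in replicates 1 and 2 by -0.39, -0.37 and -0.36, against medians of -0.11 for loci of 45 to 50% GC and -0.03 for loci of 50 to 55%. LATS1 (42.3% GC, -0.27), LATS2 (51.8%, -0.26), AMOTL2 (57.6%, -0.18) and CTGF (51.5%, -0.09) also lay lower there, 7 of the 10 in all, whereas CYR61 (50.3%, 0.05), ANKRD1 (43.3%, 0.01) and TEAD4 (60.1%, 0.11) did not. With the GC trend removed from all 6 libraries, 2 of the 10 genes were called higher (CYR61 and CTGF) and 1 lower (LATS2), in a fit that called 6.24% of loci higher and 7.03% lower. With replicate 3 left out and the GC trend removed, 5 were called higher (CYR61, CTGF, AMOTL2, WWTR1 and TEAD1) and LATS2 lower, where 15.6% of loci were higher and 14.5% lower. The part of GC content or of any other property of replicate 3 in these differences was not tested further.

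**Figure D4:**
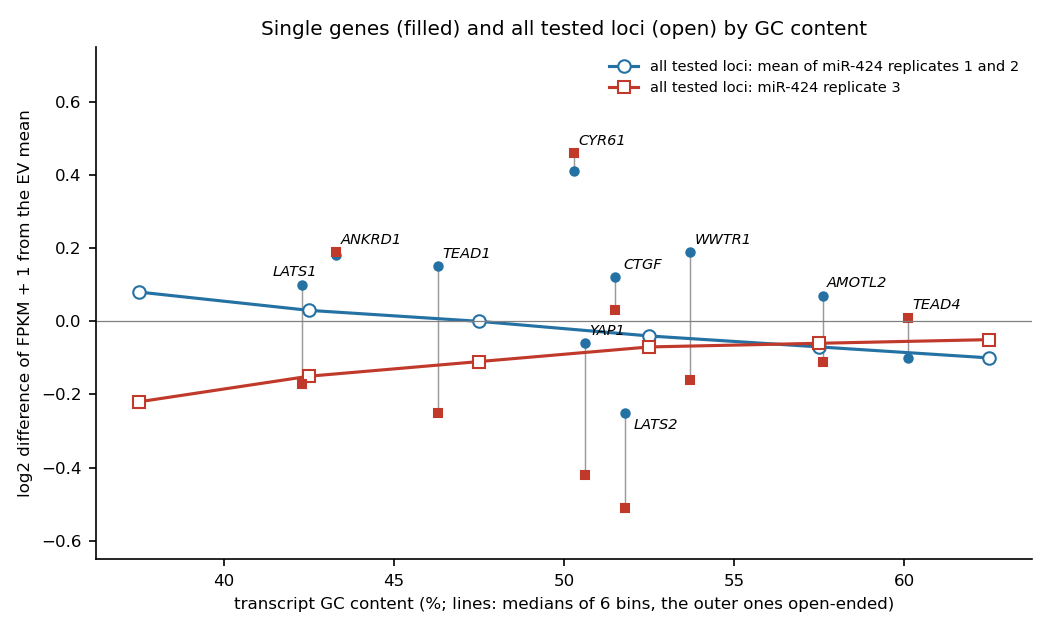
Log2 difference from the EV mean (vertical axis) against transcript GC content (horizontal axis, %) for the mean of miR-424 replicates 1 and 2 (circles) and for replicate 3 (squares); lines with open symbols are medians of all tested loci in 6 bins, filled symbols the 10 genes, joined by a grey line. For TEAD1, YAP1 and WWTR1 the squares lie lower by 0.36 to 0.39, and for CYR61 both symbols lie above 0.4.

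Matches to the microRNA were read in the 3′ UTRs because miR-424 is what the cells over-express. A microRNA pairs through its seed, bases 2 to 8, in capitals below; miR-16-5p is shown because it is a well-known microRNA with the same seed (sequences from RefSeq, GRCh38.p14).
hsa-miR-424-5p: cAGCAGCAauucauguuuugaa
hsa-miR-16-5p: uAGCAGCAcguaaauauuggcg
The complement of this seed, TGCTGCT, was searched on the transcript strand of the longest 3′ UTR per gene in GENCODE 29. It was found in 2468 of 9882 tested loci with a 3′ UTR (25%) and in 4 of the 10 genes: LATS1 (3 copies, 2 of which overlap), LATS2 (1), YAP1 (1) and TEAD1 (3). CYR61, CTGF, ANKRD1, AMOTL2, WWTR1 and TEAD4 held none. The median 3′ UTR length was 1834 bases for the 10 genes and 1382 for all tested loci. LATS2 and YAP1 were the 2 of the 10 genes lower in every miR-424 library, which held for 26.9% of all tested loci. Their copies, and the TEAD1 copy followed by an A, a feature of stronger sites, are printed 5′ to 3′ with the match in capitals.
LATS2, bases 326 to 332 of a 3′ UTR of 1838: aactttgacaaatcaTGCTGCTgttat
YAP1, bases 162 to 168 of 3483: ctcttccttgtccatTGCTGCTgttaa
TEAD1, bases 5162 to 5168 of 7261: gacgtggtccccgccTGCTGCTagtct
LATS1 and TEAD1 carry more copies than LATS2 and YAP1. The log2 changes of LATS1 and TEAD1 were 0.01 and 0.02, with miR-424 libraries on both sides of the EV libraries. A relation of copy number to change was not tested. The median log2 change of all tested loci with a match was -0.06, against -0.04 without. A match describes the longest annotated 3′ UTR, which may not be the one expressed, and is not a measured site. The part of miR-424 in the changes of these genes was not tested.

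Of the pathway's other components, the list of core and upstream Hippo regulators held 34 genes, of which 32 were tested. BTRC, the subunit of a ubiquitin ligase that recognises phosphorylated YAP and TAZ, fell, and 0 rose, against 6.32% and 1.24% of all loci. Its tested genes had a median log2 change of -0.00 (-0.05 over all loci). BTRC was at 3.77, 3.79 and 3.65 FPKM in EV replicates 1 to 3 and at 2.41, 2.62 and 2.55 FPKM in miR-424 replicates 1 to 3, a ratio of 0.676. All miR-424 libraries were lower, replicate 3 included, and the log2 change was -0.43 ± 0.04 (SE; Benjamini-Hochberg adjusted p = 0.00467, limma). Its 3′ UTR of 4198 bases held 2 copies of the seed match, both followed by an A. The part of these matches in the fall of BTRC was not tested. They are printed because BTRC is the regulator that fell.
BTRC, bases 216 to 222: aactgactgcttcagTGCTGCTatcag
BTRC, bases 2159 to 2165: agcctttctgtcataTGCTGCTattac
The match was held by 17 of the 34 regulators (50%, against 25% of all tested loci; median 3′ UTR lengths of 2838 and 1382 bases), among them LIMD1 (5 copies), WWC1 (4) and WTIP (3), which did not pass (log2 changes of -0.05, -0.09 and -0.14).
The MST kinase genes STK3 (12.3, 12.3 and 11.9 FPKM in the EV libraries, 12.5, 12.4 and 8.93 FPKM in the miR-424 libraries) and STK4, the adaptors SAV1, MOB1A and MOB1B and the membrane scaffold NF2 (merlin) did not pass, with log2 changes of -0.13 (SAV1) to 0.15 (MOB1B). FRMD6 had the largest positive change of the list, from 37.1 ± 0.881 to 45.1 ± 5.69 FPKM (SD, n = 3), which did not pass (log2 change 0.27; Benjamini-Hochberg adjusted p = 0.131, limma). It was named after its values were seen. The calls of the list depended on the libraries and scaling: without miR-424 replicate 3 there were 13 rises and 3 falls, where 14.9% of all loci rose and 22.2% fell. With median-of-ratios scaling there were 5 rises and 1 fall, where 308 of 11574 loci rose and 495 fell.

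The other TEAD genes and the vestigial-like cofactors, which compete with YAP and TAZ for TEADs, gave 0 calls among 4 tested genes of 6, and 1 unadjusted p under 0.05 (limma), which 2732 of all 11574 loci reached. TEAD2 was at 11.4, 11.1 and 10.8 FPKM in the EV libraries and at 13.5, 12.4 and 10.6 FPKM in miR-424 replicates 1 to 3, and TEAD3 at 11.3, 11.4 and 11.5 FPKM and at 10.7, 10.5 and 10.6 FPKM. The 4 TEAD genes were thus expressed together, with TEAD1 the most abundant in each library. VGLL1 was listed at 0 in all 6 libraries.

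A further list held the remaining 17 genes of a published 22-gene YAP and TAZ signature, all tested. F3, which encodes tissue factor, was the 1 that rose (log2 change 0.74 ± 0.08, SE; Benjamini-Hochberg adjusted p = 0.00631, limma), and 0 fell, against 1.24% and 6.32% of all loci. The median log2 change of the 17 was 0.06 (-0.05 over all loci). F3 was at 99.2, 103 and 101 FPKM in EV replicates 1 to 3 and at 182, 183 and 148 FPKM in miR-424 replicates 1 to 3. Without EV replicate 1 it did not pass (adjusted p = 0.0522 by limma, in a range of 7.55e-06 to 0.0522). TGFB2, a TGF-beta ligand named after its values were seen, was at 30.4, 31.0 and 31.3 FPKM and at 48.6, 47.8 and 35.0 FPKM (log2 change 0.47; Benjamini-Hochberg adjusted p = 0.0624, limma). The remaining 15 lay between -0.19 (NUAK2) and 0.19 (PTPN14), the receptor kinase gene AXL among them (0.06). Of the 17 genes, 16 were lower in miR-424 replicate 3 than in replicates 1 and 2, which was so for 7265 of 11574 loci. Without that replicate 8 rose and 3 fell (14.9% and 22.2% of all loci), and with it left out and the GC trend removed 10 rose and 2 fell (15.6% and 14.5% of all loci).

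CYR61 was not the only CCN gene to rise. Of the 4 CCN genes outside the main set, NOV (CCN3) and WISP2 (CCN5) were tested and both rose, while WISP1 and WISP3 were at 0 to 0.121 FPKM. Of all tested loci 1.24% were called higher, and 2 tested genes are no result about the family. NOV was at 2.86, 2.43 and 2.57 FPKM in the EV libraries and at 3.91, 3.91 and 3.64 FPKM in miR-424 replicates 1 to 3 (log2 change 0.41 ± 0.06, SE; Benjamini-Hochberg adjusted p = 0.0112, limma). WISP2 was at 9.69, 8.59 and 9.20 FPKM and at 11.5, 12.1 and 12.5 FPKM (log2 change 0.36 ± 0.06; adjusted p = 0.0149). For both, every miR-424 library lay above every EV library, replicate 3 included, which held for 6.59% of all tested loci. NOV did not pass without EV replicate 2 or 3 (adjusted p = 0.0688 by limma and 0.0743, in a range of 0.00157 to 0.0743). WISP2 did not pass without EV replicate 1, 2 or 3 (adjusted p = 0.0581 by limma, 0.0826 and 0.0851, in a range of 0.000792 to 0.0851), without miR-424 replicate 2 (0.0508) or with the replicate number as a block (0.0551).

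Genes of the MRTF and SRF factors were listed because CYR61, CTGF and ANKRD1 are also known to answer to actin and serum through that route. Of 18 tested genes of 21, 2 rose and 0 fell, against 1.24% and 6.32% of all loci, with a median log2 change of 0.08 (-0.05 over all loci). They were the tropomyosin gene TPM1 (38.5, 39.2 and 38.3 FPKM in the EV libraries and 53.2, 51.1 and 50.4 FPKM in miR-424 replicates 1 to 3; log2 change 0.40 ± 0.04, SE; Benjamini-Hochberg adjusted p = 0.00339, limma) and the actin-binding protein gene TAGLN (0.59 ± 0.08; adjusted p = 0.00947; 0.0598 without EV replicate 1, in a range of 0.00150 to 0.0598). SRF itself was at 15.8 to 16.2 FPKM in the 6 libraries. In 9 of the 18 genes every miR-424 library lay above every EV library, which held for 6.59% of all tested loci. The list was chosen with earlier results of these data known, so its counts are no result about it as a set. Without miR-424 replicate 3 the list had 9 rises and 1 fall, where 14.9% of loci rose and 22.2% fell. With the GC trend removed as well it had 14 rises and 1 fall, where 15.6% of loci rose and 14.5% fell.

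**Figure D5:**
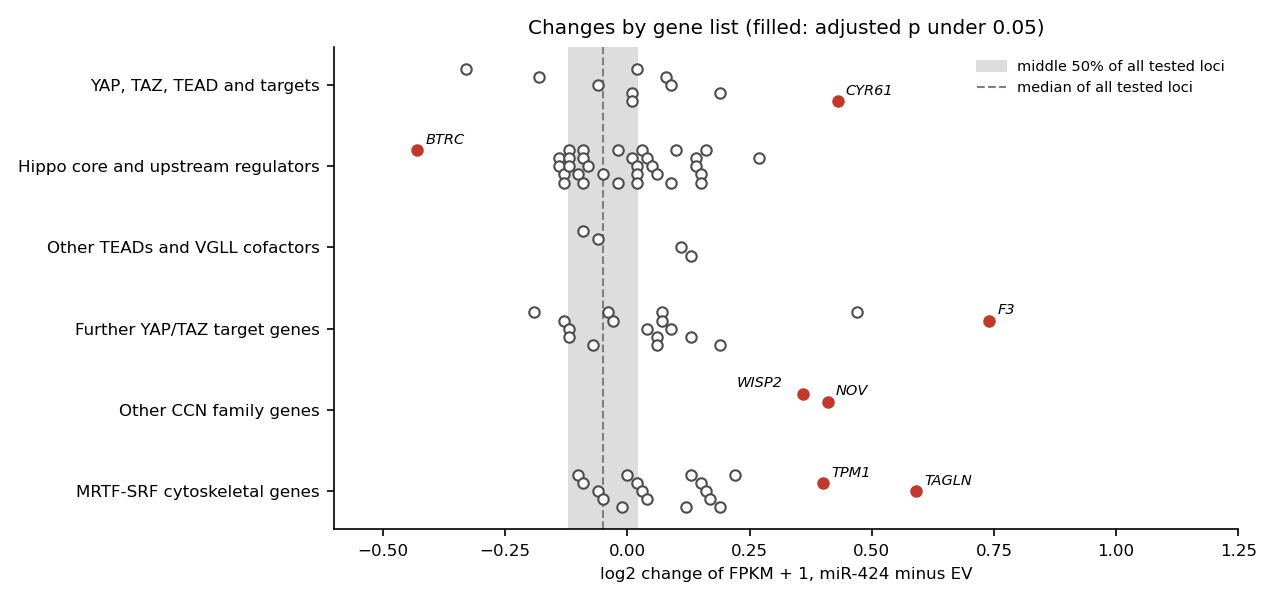
Log2 change of FPKM + 1 (horizontal axis, miR-424 minus EV) of each tested gene, by list; filled red points passed an adjusted p of 0.05, the grey band holds the middle 50% of all tested loci and the dashed line is their median. CYR61, F3, NOV, WISP2, TPM1 and TAGLN lie at 0.36 to 0.74, and BTRC at -0.43.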

How the data were processed

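The authors deposited 1 table of FPKM values, 1 column per sample, matched to samples by title. Per the submitters' processing notes, TopHat 1.4.1, Cufflinks 1.3.0, Cuffdiff and the build hg19 (GRCh37) were involved, with no roles or order given; annotation, normalization between libraries and use of strand are not stated, and fragments of overlapping genes may be shared. Coordinates are printed as that table gives them, and its starts may count from 0. FPKM are not counts, so no count test was used. Whole-fragment steps were sought in low values, but 3.87% to 11.5% of low loci lay near the step, so depth is approximate and no interval rests on it.

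Values became log2(FPKM + 1), which understates changes of low genes. The 11574 loci whose mean reached 1 FPKM (4952 of 24294 were at 0 throughout) were tested by limma 3.58.1 under R 4.3.3 (trended prior variance, no covariate, two-sided, Benjamini-Hochberg, threshold 0.05). The fit was also run on simulated data with equal, independent noise in every library. That simulation does not cover the wider spread of miR-424 replicate 3 or the GC and length trends. A GC or length trend was removed per library with splines on transcript GC (GENCODE 29, 98.6% of tested loci matched). Ratios used scipy 1.17.1.

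The 10 genes, the lists, the tests and the ratios were chosen with earlier results of these data known. Named were the 10 genes, up to 6 genes per other list that passed, or the 2 highest where none passed; other names were chosen after their values were seen.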

Additional observations from a re-analysis of the deposited data

How the results depend on the processing

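Counts are given as rises and falls for the 10 genes, then the 34 Hippo regulators, the 17 further targets and the MRTF and SRF list, with limma throughout. Median-of-ratios scaling gave 1 and 1, 5 and 1, 3 and 0, and 4 and 0, and quantile normalization 1 and 1, 4 and 1, 2 and 0, and 6 and 0. These scalings moved the median change of all loci from -0.05 to 0.00 and 0.01, and the share of rises among all calls from 16.5% (144 rises, 731 falls) to 38.4% (308 and 495) and 41.6% (319 and 447), against 47.0% with the GC trend removed (722 and 814). That fit gave 2 and 1, 6 and 1, 4 and 0, and 7 and 0. GC and length trends, an alternative chosen after seeing the data, gave 2 and 1, 6 and 1, 4 and 1, and 8 and 0 (706 and 831 loci). Without miR-424 replicate 3 and with the GC trend removed the counts were 5 and 1, 9 and 1, 10 and 2, and 14 and 1 (1803 and 1683 loci), and the length trend added, also chosen after seeing the data, left these list counts and gave 1743 and 1628 loci. The other TEAD and vestigial-like genes had 2 rises in both of these fits.

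Leaving out each library in turn gave 31 to 1728 rises and 77 to 2574 falls over all loci, and 1 to 6 rises and 0 to 1 falls for the 10 genes. It gave 0 to 13 and 1 to 3 for the Hippo regulators, 0 to 2 and 0 to 1 for the other TEAD and vestigial-like genes, 0 to 8 and 0 to 3 for the further targets, and 1 to 9 and 0 to 1 for the MRTF and SRF list. The highest counts in each range came without miR-424 replicate 3, and the 0 rises of the further targets and 1 rise of the MRTF and SRF list without EV replicate 1. The log2 change of AMOTL2 became -0.00 without EV replicate 3 and -0.02 without miR-424 replicate 1 or 2, that of LATS1 -0.02, -0.01 and -0.06, and that of TEAD1 -0.04 and -0.06 without miR-424 replicate 1 or 2. Over all 6 such fits these changes ran from -0.02 to 0.07, from -0.06 to 0.10 and from -0.06 to 0.15. TEAD4 turned to 0.02 with the GC trend removed, alone, with the block or with the length trend, and to 0.01 without miR-424 replicate 3 and both trends. A minimum of 5 FPKM left 468 falls over all loci and 0 falls among the Hippo regulators, since BTRC was below it. The causes of the other shifts were not tested. The pseudocount, the absence of a filter and limma without a trend kept CYR61 as the 1 called gene of the 10.

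Samples with the same replicate number had correlations of deviations of 0.05, 0.15 and 0.13, against -0.19 to 0.06 for the other pairs. EV replicates 2 and 3 correlated best with the miR-424 sample of their number, and EV replicate 1 with miR-424 replicate 2 (0.06). These values do not settle whether the samples are paired. The labels state no pairing, so the main fit had no block. A replicate block gave 79 rises and 270 falls over all loci and 1 and 0 for the 10 genes. The replicate block with GC trend removed gave 373 rises and 500 falls, 1 and 1 for the 10 genes, 4 rises for the Hippo regulators, 1 for the other TEAD and vestigial-like genes, 3 for the further targets and 5 for the MRTF and SRF list.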

Other observations

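The symbol TAZ in the deposited table is not the YAP paralog. That locus, on chromosome X from 153626570 to 153650063, is the tafazzin gene of cardiolipin metabolism, and it was at 8.04, 7.58 and 7.46 FPKM in EV replicates 1 to 3 and at 6.89, 6.91 and 6.84 FPKM in miR-424 replicates 1 to 3 (log2 change -0.14 ± 0.04, SE; limma, Benjamini-Hochberg adjusted p = 0.108). WWTR1, the gene of the TAZ coactivator, had a log2 change of 0.08, so that a search by the protein's name returns a value of the opposite sign.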
